A study of Homo sapiens with 24 samples.

Results

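CD33 knockout macrophages that also carried a hairpin against PTPN6 (CD33KO_shPTPN6) were compared with wild-type macrophages that carried the empty vector (WT_shCTRL). The members of the comparison were all libraries whose group label names both changes or neither, which gave 5 and 6 libraries, or 11 of the 23 libraries used here. The cells were THP1, a human monocytic leukaemia line that becomes an adherent macrophage when treated with the phorbol ester PMA. CD33KO_shPTPN6 replicates 1, 3, 4, 5 and 6 were CD33 knockout cells with pLKO.1 expressing 1 hairpin against PTPN6, and replicate 2 was not analysed here. WT_shCTRL replicates 1 to 6 were wild-type cells with empty pLKO.1. The intermediate groups were CD33KO_shCTRL, knockout cells with empty pLKO.1, and WT_shPTPN6, wild-type cells with the hairpin, with 6 libraries each; their values are given where they place the double group. Cells of all 4 groups had been exposed for 24 hours to lentivirus made in HEK-293FT cells, rested for 48 hours and selected with 1 µg/ml puromycin. Differentiation took 48 hours in 10 ng/ml PMA, followed by 48 hours in medium lacking it. The labels do not say whether the knockout line was 1 clone, so the loss of CD33 and any other difference between the lines cannot be told apart. Nor can the loss of PTPN6 and the presence of a hairpin be told apart, since the control vector held none.

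CD33 is a receptor of the Siglec family, which binds sialic acid on cell surfaces and is found mainly on myeloid cells. Its cytoplasmic tail holds immunoreceptor tyrosine-based inhibitory motifs (ITIMs). When Src-family kinases phosphorylate these motifs, they recruit the phosphatases SHP-1, the product of PTPN6, and SHP-2, which remove phosphates from kinases and adaptors of activating receptors. Variants at the CD33 locus are associated with the risk of Alzheimer's disease, and in microglia the receptor is known for restraining uptake of amyloid.

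Reads were counted per gene at the 3' ends of polyadenylated RNA, and values are given as CPM, the counts of a gene relative to its TMM-scaled library total. The CD33KO_shPTPN6 libraries held 2024032 to 2581042 counts and the WT_shCTRL libraries 4170191 to 5700712, so every double library was shallower than every control. Mitochondrial transcripts took 6.359 to 6.545% of counts in CD33KO_shPTPN6 and 5.864 to 6.539% in WT_shCTRL, and ribosomal protein transcripts took 7.372 to 7.788% in CD33KO_shPTPN6 and 6.166 to 7.256% in WT_shCTRL, without overlap. All 15 identity markers of monocytes and macrophages had enough counts to be tested, and 8 were higher and 6 lower in the double group. Whether the replicates came from different cultures is not in the labels, so the p-values speak only for the spread among the libraries at hand.

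PTPN6 was low in every library with the hairpin and lowest on average in the double group. It had 4.94, 7.31, 7.63, 11.8 and 5.32 CPM in CD33KO_shPTPN6, against 35.8 to 52.4 CPM (median 45.3) in WT_shCTRL, and no library of either group overlapped the other (log2 fold change -2.60 ± 0.15 SE, edgeR adjusted p = 2.58e-30; two-sided exact permutation p = 0.00433, the smallest these groups allow). PTPN6 lay at 32.6 to 44.1 CPM in CD33KO_shCTRL and 8.73 to 12.8 CPM in WT_shPTPN6, so the double group was also below the single knockdown (-0.52 ± 0.19, edgeR adjusted p = 0.0166), with overlapping libraries. The hairpin matches 21 bases of PTPN6 at chr12:6959963-6959983 on the plus strand of GRCh38, in coding sequence of exon 12 of 16 of the full-length transcripts, and it is shown because the knockdown rests on it, with the matched bases in capitals.
PTPN6 hairpin target: CGACATGCTCATGGAGAACAT
The same bases were found in 7 annotated transcripts, all of PTPN6.

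CD33 transcript was reduced and not lost. It had 23.7, 23.8, 15.7, 25.3 and 29.03 CPM in CD33KO_shPTPN6, against 39.7 to 48.5 CPM (median 46.3) in WT_shCTRL, and each double library was below each control (log2 fold change -0.95 ± 0.11 SE, edgeR adjusted p = 2.21e-13; two-sided exact permutation p = 0.00433). In the other groups CD33 lay at 16.2 to 22.5 CPM in CD33KO_shCTRL and 81.3 to 94.9 CPM in WT_shPTPN6. The double group therefore differed from the single knockdown by -1.91 ± 0.10 (edgeR adjusted p = 6.73e-34), while the difference from the single knockout was 0.22 and was not called (edgeR adjusted p = 0.185). The labels do not place the edit, and 3' end counts outside an edited stretch do not test it.

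The double group differed from control across most of the measured transcriptome. Of 13098 genes with enough counts, 4204 rose and 4152 fell (edgeR adjusted p under 0.05, called changes below), or 32.1% and 31.7%, together 63.8%. Counts of called members of a gene list are read against these shares. A change of at least 2-fold was found for 1220 higher genes (9.31%) and 1637 lower genes (12.5%), together 21.8%. The median size of change was 0.73 on the log2 scale among called genes, and 3270 of them changed by under 1.5-fold. The 2 groups of libraries did not overlap for 5992 genes (45.7%; 22.6% with all double libraries above and 23.1% with all below). Scaling by library totals alone, which moves the median of all tested genes to -0.14, gave 3209 higher and 5258 lower genes, so small changes within any list are read against that shift. In bulk RNA, fewer cells of a type and less RNA per cell cannot be told apart.

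**Figure D1:**
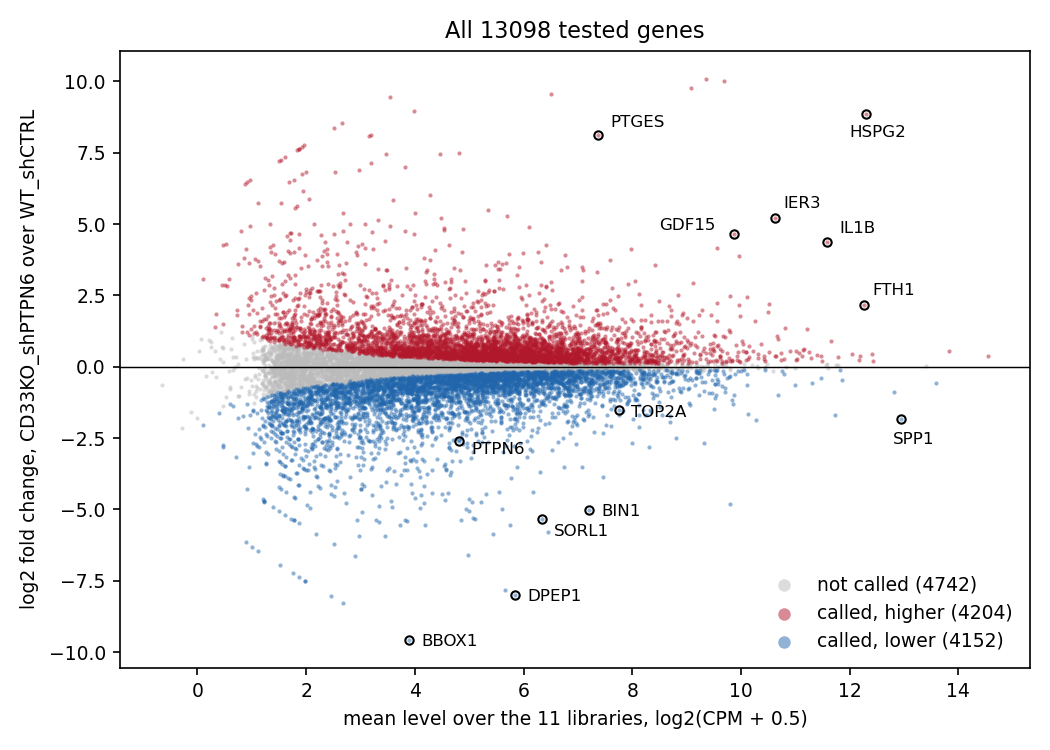
Each point is 1 of the 13098 tested genes, with its mean level over the 11 libraries as log2(CPM + 0.5) on the x axis and its log2 fold change, CD33KO_shPTPN6 over WT_shCTRL, on the y axis. The 4204 called higher genes are red and the 4152 called lower genes blue; circled genes are named in the text, with HSPG2 the most abundant of the large rises and SPP1 the most abundant of the circled falls.

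Set against the single groups, which share the WT_shCTRL libraries with the double group, the double group lay beyond all of them for a minority of genes. It was above WT_shCTRL, CD33KO_shCTRL and WT_shPTPN6 together for 1036 genes (7.91%) and below all 3 for 898 (6.86%). It differed from CD33KO_shCTRL for 2685 higher and 2827 lower genes (20.5% and 21.6%, together 42.1%) and from WT_shPTPN6 for 3802 higher and 3599 lower genes (29% and 27.5%, together 56.5%). Another 654 genes were above WT_shCTRL and called against neither single group, and 726 were below it in the same way. For comparison, CD33KO_shCTRL alone differed from WT_shCTRL in 7428 genes (56.7%) and WT_shPTPN6 alone in 7941 (60.6%). Within CD33KO_shCTRL, replicate 2 stood apart, with 183 genes at least 2-fold from the median of the group's other libraries. The other CD33KO_shCTRL libraries had 39 to 90 such genes. Comparisons with CD33KO_shCTRL were not repeated without replicate 2.

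**Figure D2:**
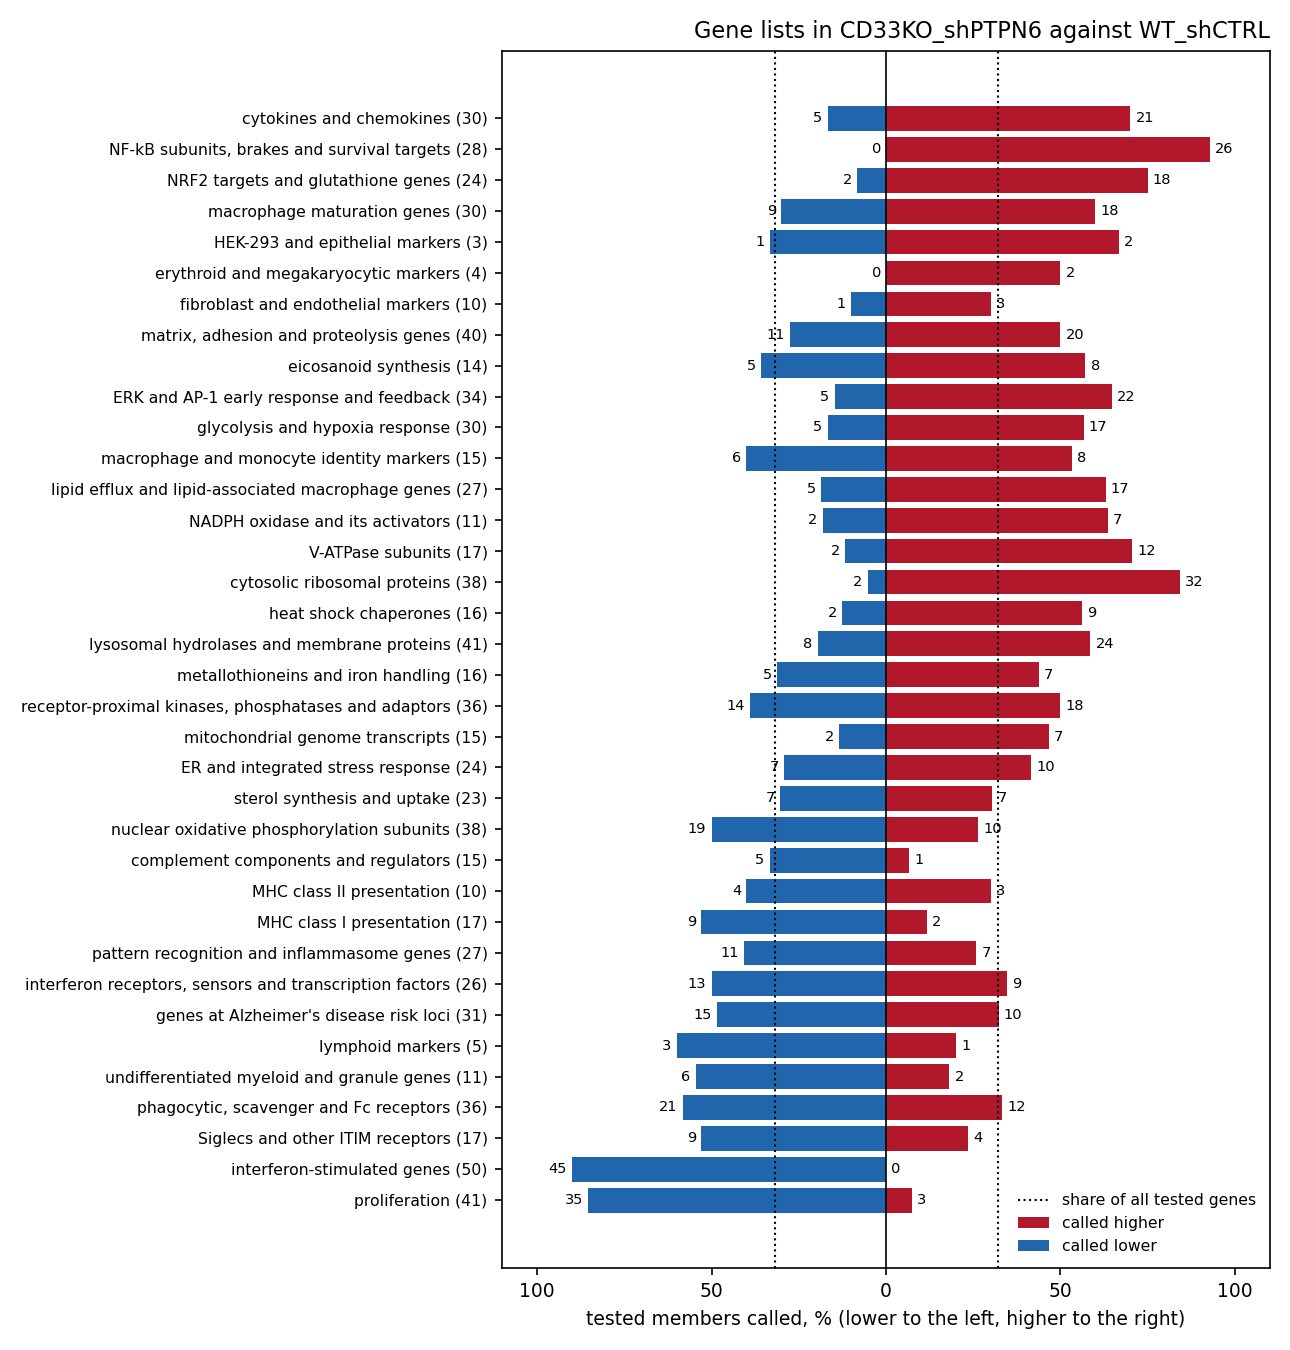
Bars give the percentage of tested members of each gene list that were called higher (right, red) or lower (left, blue) in CD33KO_shPTPN6 against WT_shCTRL, with the number called beside each bar and the number tested in parentheses, ordered by the median log2 fold change. Dotted lines mark the 32.1% and 31.7% of all tested genes, and the proliferation and interferon-stimulated lists reach furthest to the left.

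Most tested cell division genes were lower in the double group than in each of the other groups. Of 41 tested proliferation genes 35 fell and 3 rose; the median log2 fold change was -1.29, against -0.00014 over all tested genes. The same list had medians of -0.16 in CD33KO_shCTRL and -0.28 in WT_shPTPN6 against the shared controls, and 34 of its genes were below all 3 other groups (6.86% of all genes). Double and control libraries did not overlap for 38 of the 41 (45.7% of all genes). TOP2A, the topoisomerase that untangles DNA before mitosis, had 106, 116, 111.8, 94.3 and 104 CPM in CD33KO_shPTPN6, against 275 to 328 CPM (median 307) in WT_shCTRL. Every double library held less than every control library (log2 fold change -1.53 ± 0.06 SE, edgeR adjusted p = 3.39e-44), and TOP2A lay at 268 to 327 CPM in CD33KO_shCTRL and 186 to 226 CPM in WT_shPTPN6.

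Genes of DNA synthesis and of mitosis were among those that fell. Among genes of DNA synthesis, TYMS, which makes thymidylate, changed by -1.74 ± 0.09 on the log2 scale (± SE here and below), RRM2, a ribonucleotide reductase subunit, by -1.12 ± 0.12, the sliding clamp PCNA by -0.91 ± 0.09 and the helicase subunit MCM2 by -0.77 ± 0.09. The mitotic kinases AURKB and PLK1 changed by -1.62 ± 0.11 and -1.77 ± 0.16, and CDK1 and its partner CCNB1 by -1.41 ± 0.09 and -1.44 ± 0.12 (edgeR adjusted p = 1.35e-25, 9.94e-19, 1.68e-26 and 2.33e-21). All of these were below each of the 3 other groups. BIRC5, which encodes survivin, part of the chromosomal passenger complex, had 24.2, 14.6, 18.9, 19.6 and 15.5 CPM in CD33KO_shPTPN6, against 61.2 to 81.1 CPM (median 72.7) in WT_shCTRL, so the highest double library was far below the lowest control (log2 fold change -1.96 ± 0.11 SE, edgeR adjusted p = 5.8e-32). MKI67, the proliferation antigen Ki-67, averaged 45.01 ± 7.74 CPM in CD33KO_shPTPN6, 98.6 ± 10.3 CPM in CD33KO_shCTRL, 91.3 ± 9.16 CPM in WT_shPTPN6 and 109.6 ± 6.09 CPM in WT_shCTRL (SD here and below, n = 5, 6, 6 and 6).

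CDC20 had another order among the groups. This gene, the activator of the anaphase-promoting complex, averaged 107 ± 6.71 CPM in CD33KO_shPTPN6, 474 ± 28.9 CPM in CD33KO_shCTRL, 118 ± 7.39 CPM in WT_shPTPN6 and 279.7 ± 10.2 CPM in WT_shCTRL. It was thus lower in the double group than in the single knockout (-2.15 ± 0.06, edgeR adjusted p = 1.51e-57) and slightly lower than in the single knockdown (-0.14 ± 0.06, edgeR adjusted p = 0.047). The 3 exceptions that rose were CCND1, the cyclin that starts the passage through G1, TUBB, a beta tubulin, and CDKN1A, the cyclin-dependent kinase inhibitor p21. CCND1 had 1021, 1069, 1038, 1080 and 1049 CPM in CD33KO_shPTPN6, against 241 to 277 CPM (median 266) in WT_shCTRL (log2 fold change 2.00 ± 0.05 SE, edgeR adjusted p = 2.61e-65), and its groups were far apart. CDKN1A had 1347, 1451, 1292, 1303 and 1376 CPM in CD33KO_shPTPN6, against 763 to 806 CPM (median 795) in WT_shCTRL (log2 fold change 0.78 ± 0.05 SE, edgeR adjusted p = 3.79e-31), again with no overlap, and both genes were above all 3 other groups. Cyclin CCND3, the helicase subunit MCM7 and the methylation factor UHRF1 were not called, with log2 fold changes of -0.06 ± 0.05, -0.10 ± 0.07 and -0.33 ± 0.32 (edgeR adjusted p = 0.294, 0.182 and 0.374); by library totals CCND3 and MCM7 were called lower. Scaling by library totals gave 37 lower and 3 higher proliferation genes.

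**Figure D3:**
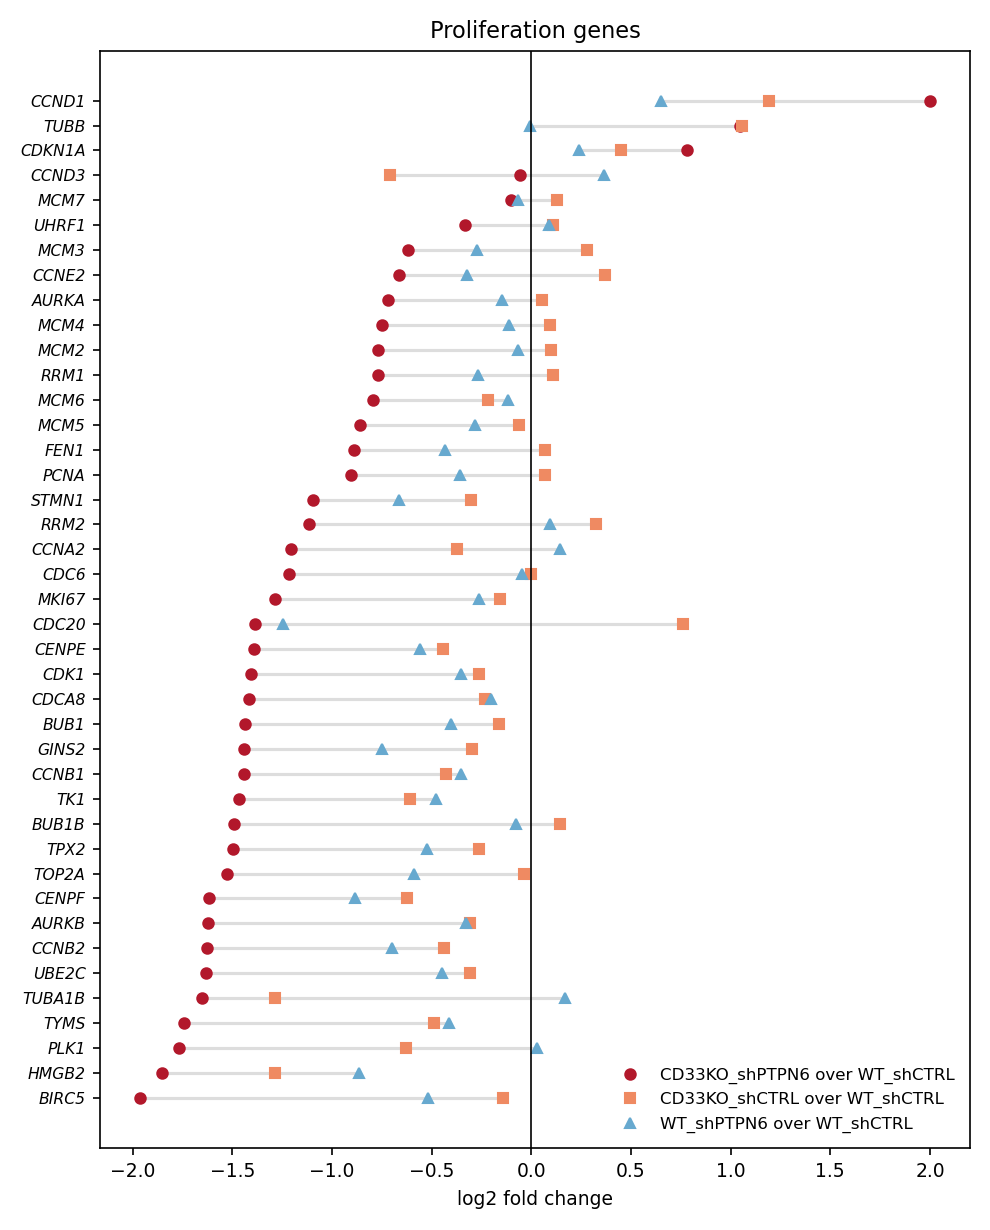
The 41 tested proliferation genes are listed down the page in order of their change, with the log2 fold change over WT_shCTRL on the x axis for CD33KO_shPTPN6 (circles), CD33KO_shCTRL (squares) and WT_shPTPN6 (triangles), which share the control libraries. The circles lie to the left of both other symbols for most genes, with CCND1, TUBB and CDKN1A to the right of 0 at the top.

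The list of Siglecs, the family of CD33, and of receptors with inhibitory motifs held more falls than rises. It was not split by whether a Siglec holds such motifs. Of 24 listed, 17 had enough counts, and 9 fell and 4 rose, with a median of -0.88; the medians were -1.52 in CD33KO_shCTRL and 0.74 in WT_shPTPN6. Among Siglecs, CD22 had 1.48, 1.83, 2.24, 1.03 and 0.818 CPM in CD33KO_shPTPN6, against 56.8 to 65.5 CPM (median 58.2) in WT_shCTRL. All double libraries lay far below all controls (log2 fold change -5.29 ± 0.21 SE, edgeR adjusted p = 4.17e-45), and CD22 was below all 3 other groups. SIGLEC15, which is expressed on macrophages and osteoclast precursors, changed by -4.17 ± 0.24, and SIGLEC1, the sialoadhesin of tissue macrophages, by -2.86 ± 0.18 (edgeR adjusted p = 1.52e-31 and 9.43e-29). SIGLEC7 was not called (-0.54 ± 0.43, edgeR adjusted p = 0.281), and 3 other Siglecs, SIGLEC5, SIGLEC6 and SIGLEC10, did not pass the filter on low counts.

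Rises within this list concerned receptors outside the Siglec family. PECAM1, an adhesion molecule with inhibitory motifs, had 726, 667, 743, 676 and 728 CPM in CD33KO_shPTPN6, against 148 to 171 CPM (median 162) in WT_shCTRL. The groups were far apart (log2 fold change 2.13 ± 0.05 SE, edgeR adjusted p = 3.82e-66), and the level in the double group was also above the 346 to 389 CPM in CD33KO_shCTRL and 364 to 393 CPM in WT_shPTPN6. SIRPA, the receptor for the self-marker CD47, averaged 212 ± 8.5 CPM in CD33KO_shPTPN6, 113 ± 5.76 CPM in CD33KO_shCTRL, 217 ± 11.6 CPM in WT_shPTPN6 and 88.03 ± 3.05 CPM in WT_shCTRL, and the double group did not differ detectably from the single knockdown (-0.03 ± 0.05, edgeR adjusted p = 0.611). CD300A, a lipid-binding inhibitory receptor, rose by 1.38 ± 0.09 and was above all 3 other groups. LAIR1, the collagen-binding inhibitory receptor, was not called against control (0.11 ± 0.07, edgeR adjusted p = 0.178), although it differed from CD33KO_shCTRL by 0.98 ± 0.09 and from WT_shPTPN6 by -1.15 ± 0.07 (edgeR adjusted p = 1.35e-18 and 7.56e-30).

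Of 36 tested kinases, phosphatases and adaptors that act at such receptors, 18 rose and 14 fell, a split that scaling by library totals turned to 15 and 16. Of the Src-family kinases LYN, FGR and SRC rose and FYN fell. LYN, which phosphorylates inhibitory motifs, had 582, 583, 549, 498 and 582 CPM in CD33KO_shPTPN6, against 175 to 194 CPM (median 185) in WT_shCTRL, and all double libraries exceeded all controls (log2 fold change 1.59 ± 0.05 SE, edgeR adjusted p = 1.47e-53). FGR averaged 171 ± 10.3 CPM in CD33KO_shPTPN6, 109 ± 7.54 CPM in CD33KO_shCTRL, 15 ± 1.77 CPM in WT_shPTPN6 and 22.1 ± 2.28 CPM in WT_shCTRL, and both kinases were above all 3 other groups. SRC rose by 2.51 ± 0.13, whereas FYN changed by -0.79 ± 0.10. Other phosphatases also moved: PTPN12 (PTP-PEST), PTPRE and PTPRJ rose by 1.38 ± 0.06, 1.46 ± 0.06 and 1.16 ± 0.07, each above all 3 other groups, and PTPN1 (PTP1B) rose by 0.58 ± 0.05. PTPN11, which encodes SHP-2, had 32.6, 38.9, 46.7, 37.6 and 41.3 CPM in CD33KO_shPTPN6, against 43.6 to 65.5 CPM (median 61.3) in WT_shCTRL, a fall with overlapping libraries (log2 fold change -0.58 ± 0.10 SE, edgeR adjusted p = 3.34e-07).

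Among the 14 members of that list that fell, FCER1G and TYROBP, adaptors with activating motifs, changed by -0.99 ± 0.05 and -0.67 ± 0.05, and the kinases SYK and BTK, which act after them, by -0.54 ± 0.08 and -0.79 ± 0.14 (edgeR adjusted p = 8.43e-36, 2.4e-23, 2.51e-09 and 4.3e-07). Other members that carry signals from such receptors moved either way, with the phospholipase PLCG2 at -0.42 ± 0.11, the lipid kinase subunit PIK3CD at -0.37 ± 0.09, the adaptor LCP2 at 0.29 ± 0.05 and the exchange factor VAV1 at 0.32 ± 0.07 (edgeR adjusted p = 0.000594, 0.00026, 1.48e-06 and 7.97e-05). INPP5D, the lipid phosphatase SHIP1, averaged 147 ± 8.8 CPM in CD33KO_shPTPN6, against 306 ± 13.9 CPM in WT_shCTRL (SD, n = 5 and 6), without overlap. CSK, which inhibits Src-family kinases, was not called (-0.04 ± 0.09, edgeR adjusted p = 0.693).

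**Figure D4:**
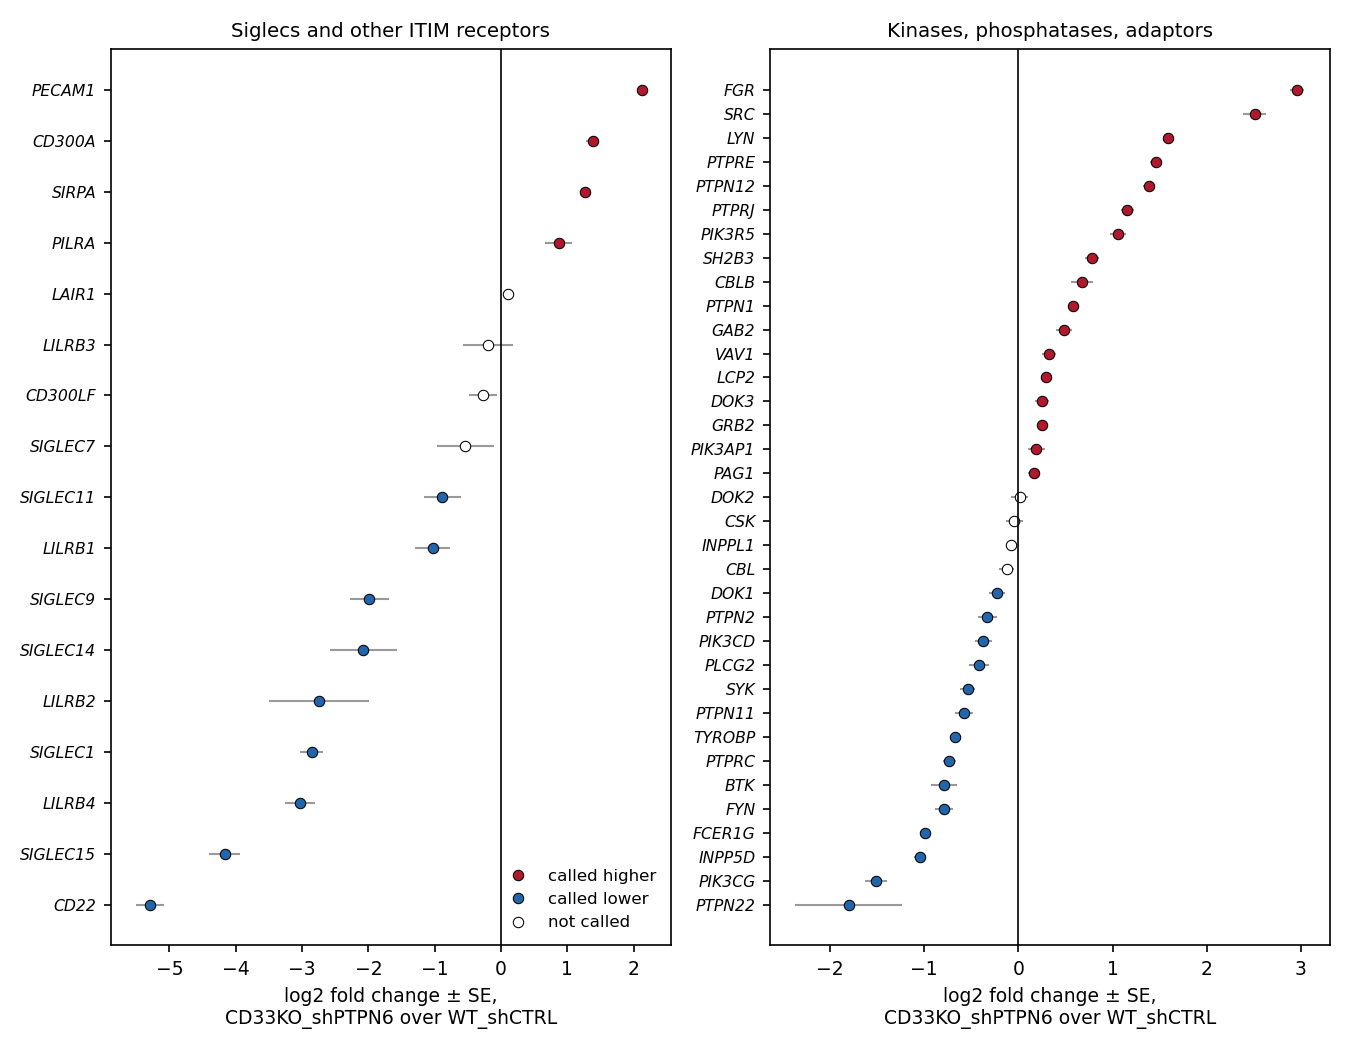
Points give the log2 fold change, CD33KO_shPTPN6 over WT_shCTRL, with its SE as horizontal bars, for the 17 tested Siglecs and other ITIM receptors (left) and 35 of the 36 tested kinases, phosphatases and adaptors (right), each ordered from high to low. Red points were called higher, blue points lower and white points not called; CD22 stands lowest on the left and FGR highest on the right.

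Most genes of the NF-kB and cytokine lists rose. Of 28 tested subunits, brakes and survival targets of NF-kB, the transcription factor that drives many inflammatory genes, 26 rose and none fell (median log2 fold change 1.258); BIRC2 and CYLD were not called, although BIRC2, at -0.13 ± 0.07, was called lower under some other settings. By library totals 25 rose and 1 fell. The list's medians were 1.253 in CD33KO_shCTRL and 0.23 in WT_shPTPN6. In the double group 27 of its members were higher and 1 lower than in WT_shPTPN6 (29% and 27.5% of all genes). Compared with CD33KO_shCTRL, 9 were higher and 9 lower (20.5% and 21.6% of all genes). IER3, an early-response survival gene, had 3349, 2907, 3751, 3362 and 3478 CPM in CD33KO_shPTPN6, against 84.2 to 96.2 CPM (median 94.2) in WT_shCTRL (log2 fold change 5.19 ± 0.06 SE, edgeR adjusted p = 1.85e-59). BCL2A1, an anti-apoptotic BCL2 relative, had 256, 270.1, 252, 234 and 263 CPM in CD33KO_shPTPN6, against 28.8 to 34.3 CPM (median 32.9) in WT_shCTRL (log2 fold change 2.99 ± 0.07 SE, edgeR adjusted p = 1.09e-66). In both, the lowest double library was several times the highest control. TNFAIP3, a deubiquitinase that limits NF-kB, rose by 2.00 ± 0.06, the inhibitor NFKBIA by 0.85 ± 0.05, and the subunits REL, NFKB1 and RELA by 1.47 ± 0.09, 0.91 ± 0.08 and 0.76 ± 0.07.

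A kappa B element, searched as GGG and TTTCC with any 2 bases between them on both strands between 250 bases before and 50 bases after the start of each gene (RefSeq promoters, GRCh38.p14), was present for 6 of the 23 higher NF-kB list genes with a promoter in the table (26.1%). It was present for 6 of 16 higher cytokine genes (37.5%) and in 1.92% of all 27305 promoters, or 2.23% of those of tested genes. The element and its flanks are shown for 3 genes that rose, with the match in capitals, as a description of these windows. The stretches are chr6:137867184-137867233 for TNFAIP3, chr2:60881508-60881557 for REL and chr11:102317265-102317314 for BIRC3, an inhibitor of apoptosis that rose by 2.65 ± 0.13. All are on the plus strand, and the match reads on the opposite strand in each.
TNFAIP3: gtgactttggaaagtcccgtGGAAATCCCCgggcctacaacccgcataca
REL: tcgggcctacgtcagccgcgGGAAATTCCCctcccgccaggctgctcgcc
BIRC3: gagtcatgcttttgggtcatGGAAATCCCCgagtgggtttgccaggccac

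Of 30 tested cytokines and chemokines 21 rose and 5 fell, with a median of 2.10. The medians against the shared controls were 2.80 in CD33KO_shCTRL and 0.29 in WT_shPTPN6. Against CD33KO_shCTRL, 7 were higher and 13 lower (20.5% and 21.6% of all genes). Beyond all 3 other groups lay 4 above and 2 below (7.91% and 6.86% of all genes). IL1B, the inflammasome-processed cytokine, had 6689, 6663, 6376, 6353 and 5957 CPM in CD33KO_shPTPN6, against 284.7 to 339 CPM (median 297) in WT_shCTRL, a separation with no overlap (log2 fold change 4.39 ± 0.06 SE, edgeR adjusted p = 4.74e-44). It lay at 3000 to 3576 CPM in CD33KO_shCTRL and 690.4 to 964 CPM in WT_shPTPN6, so IL1B in the double group was above every library of all 3 other groups. TNF averaged 93.3 ± 4.51 CPM in CD33KO_shPTPN6, 57.7 ± 8.02 CPM in CD33KO_shCTRL, 14.9 ± 3.59 CPM in WT_shPTPN6 and 8.69 ± 1.95 CPM in WT_shCTRL and was likewise above all 3. Other members did not follow this order. CXCL8, a neutrophil attractant, averaged 1550 ± 58.2 CPM in CD33KO_shPTPN6, 1726 ± 473 CPM in CD33KO_shCTRL, 265 ± 55.2 CPM in WT_shPTPN6 and 85.8 ± 7.47 CPM in WT_shCTRL, and the double group did not differ detectably from the single knockout (-0.16 ± 0.17, edgeR adjusted p = 0.491). The wide spread of CXCL8 among CD33KO_shCTRL libraries limits this comparison. IL23A, the specific subunit of interleukin 23, and IL1RN, the interleukin 1 receptor antagonist, rose over control by 3.63 ± 0.10 and 1.81 ± 0.05 but were lower than in CD33KO_shCTRL, with log2 fold changes of -1.52 ± 0.07 and -0.88 ± 0.05 (edgeR adjusted p = 3.25e-38 and 3.3e-32).

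Genes of the other direction included SPP1, the secreted phosphoprotein osteopontin and one of the most abundant transcripts of the control cells, which averaged 3276 ± 113 CPM in CD33KO_shPTPN6, against 11786 ± 453 CPM in WT_shCTRL. The interferon-induced chemokine CXCL10 changed by -1.30 ± 0.25, and SPP1 and the chemokine CCL5 were below all 3 other groups. The fall of CCL5 was small and its libraries overlapped, with 101 to 132.4 CPM in CD33KO_shPTPN6, against 128.4 to 149.1 CPM in WT_shCTRL. Among 14 tested genes of eicosanoid synthesis 8 rose and 5 fell. PTGES, the prostaglandin E synthase induced in inflammation, had 367, 344, 402, 347 and 339 CPM in CD33KO_shPTPN6, against 0.172 to 3.03 CPM (median 1.1) in WT_shCTRL (log2 fold change 8.12 ± 0.14 SE, edgeR adjusted p = 6.59e-43). It was near absent from every control and abundant in every double library, at more than the 154 to 182 CPM in CD33KO_shCTRL and 1.74 to 5.41 CPM in WT_shPTPN6. PTGS2, the inducible cyclooxygenase before it in the pathway, rose by 3.56 ± 0.12, while the constitutive PTGS1 changed by -0.99 ± 0.06.

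Most interferon-stimulated genes fell. None of 50 tested members rose and 45 fell (median log2 fold change -1.27), and double and control libraries did not overlap for 44 (45.7% of all genes). Their medians against the shared controls were -1.02 in CD33KO_shCTRL and -1.74 in WT_shPTPN6. Directly compared, 32 were higher and 7 lower in the double group than in WT_shPTPN6 (29% and 27.5% of all genes), and 3 were higher and 19 lower than in CD33KO_shCTRL (20.5% and 21.6% of all genes). Of these genes 3, BST2, DDX60L and IFI16, were below all 3 other groups (6.86% of all genes). IFI27, a strongly interferon-inducible mitochondrial protein, had 9.88, 4.57, 13.02, 11.8 and 13.1 CPM in CD33KO_shPTPN6, against 114 to 169 CPM (median 133) in WT_shCTRL. The groups did not overlap (log2 fold change -3.67 ± 0.13 SE, edgeR adjusted p = 5.88e-39), and IFI27 lay at 30.3 to 44.01 CPM in CD33KO_shCTRL and 2.91 to 4.98 CPM in WT_shPTPN6, so that the double mean fell between these, with its replicate 3 inside the WT_shPTPN6 range. OAS1, whose product activates RNase L, averaged 46.9 ± 4.79 CPM in CD33KO_shPTPN6, against 179 ± 11.4 CPM in WT_shCTRL (log2 fold change -1.93 ± 0.08 SE, edgeR adjusted p = 2.03e-43). IFI16, a DNA sensor, changed by -2.30 ± 0.08, IFITM3, an antiviral membrane protein, by -1.33 ± 0.06 and IFIT1, which binds viral RNA, by -2.17 ± 0.12. ADAR, GBP1, GBP2, HERC5 and PARP12 were not called; ADAR, at -0.11 ± 0.05, was called lower under several other settings.

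The interferon-stimulated response element, searched as GAAA and GAAA with any 2 bases between them on both strands of the same promoter windows, was present for 26 of the 37 lower members with a promoter in the table (70.3%), 3 of 4 not called, and 3.65% of all 27305 promoters. It is shown with its flanks for IFI27 (chr14:94110621-94110670, plus strand), IFITM3 (chr11:320866-320915, minus strand) and IFIT1 (chr10:89392500-89392549, plus strand, where the match reads on the opposite strand), with the match in capitals, since these are lower members whose windows hold it.
IFI27: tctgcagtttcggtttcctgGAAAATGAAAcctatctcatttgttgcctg
IFITM3: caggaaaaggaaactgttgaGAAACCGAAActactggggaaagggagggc
IFIT1: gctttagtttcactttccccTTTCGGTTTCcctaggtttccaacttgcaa

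Of 26 tested interferon receptors, sensors and transcription factors 9 rose, near the 32.1% of all tested genes, and 13 fell (31.7% of all genes). STING1, the adaptor of cytosolic DNA sensing, changed by -2.64 ± 0.09, below all 3 other groups, whereas the transcription factor IRF1 and the receptor chain IFNGR2 rose by 1.53 ± 0.07 and 1.05 ± 0.05, above all 3. Of 17 tested genes of MHC class I presentation 9 fell and 2 rose (13 and 2 by library totals). B2M, the light chain of class I molecules, averaged 4958 ± 321 CPM in CD33KO_shPTPN6, against 9123 ± 595 CPM in WT_shCTRL, and TAP1, the peptide transporter, changed by -1.54 ± 0.07, while HLA-E and TAPBP rose by 0.87 ± 0.05 and 0.47 ± 0.05. Of 10 tested class II genes 4 fell and 3 rose, shares near the 31.7% and 32.1% of all genes; after thinning to the smallest library 1 rose, and without WT_shCTRL replicate 4 it was 5. CD74, the invariant chain, changed by -1.55 ± 0.07 and HLA-DRB1 by -2.99 ± 0.12.

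**Figure D5:**
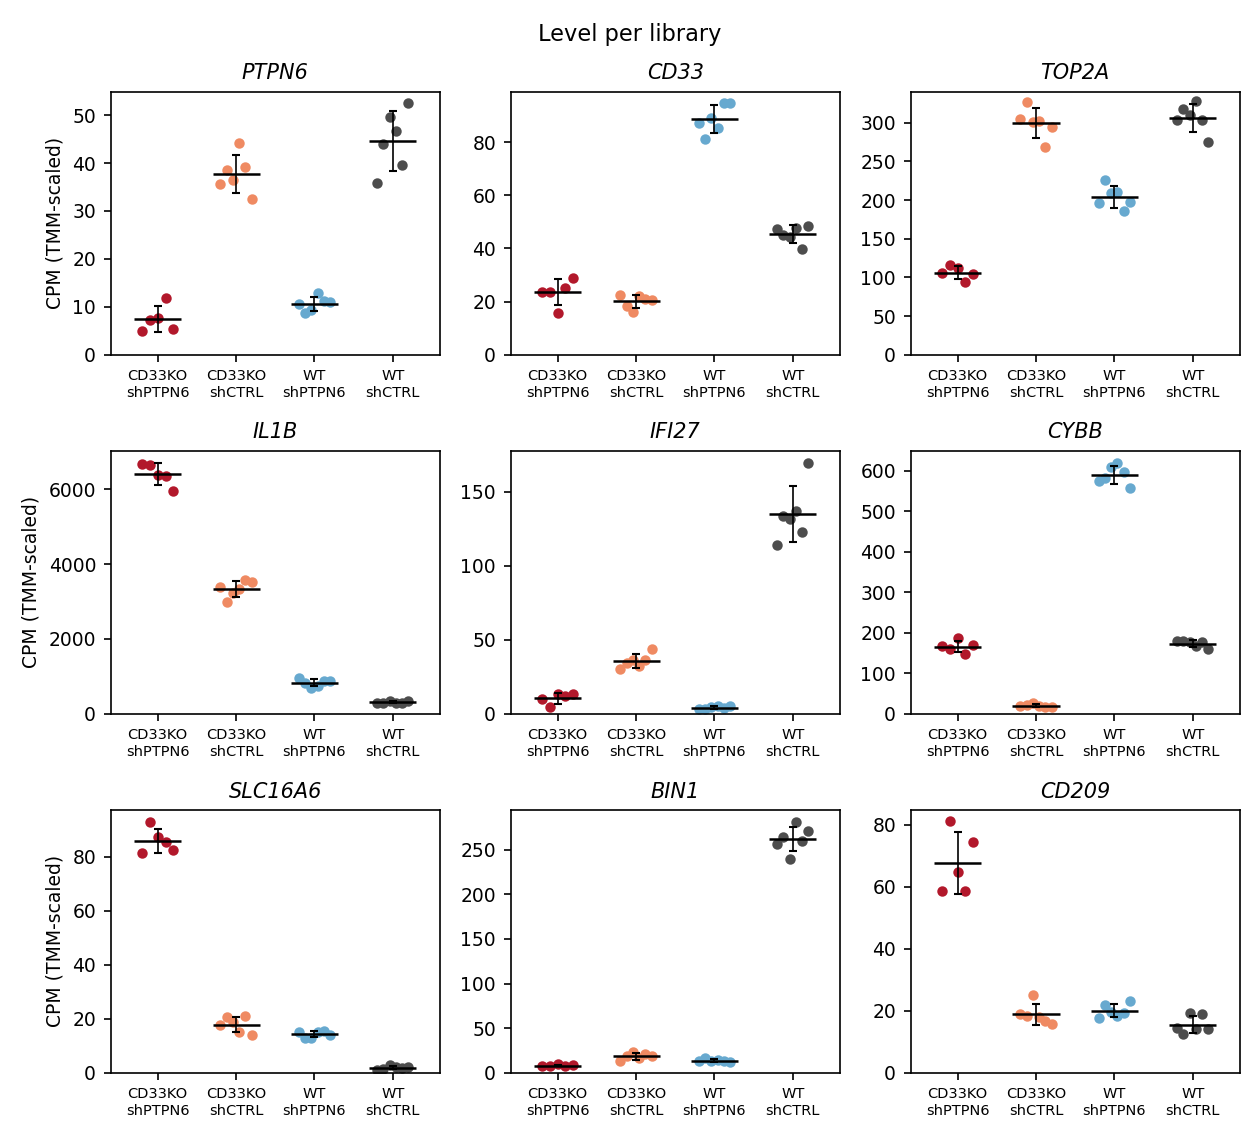
Each panel plots 1 gene as TMM-scaled CPM per library (points), with the group mean (line) and SD (bars), for CD33KO_shPTPN6 (n = 5), CD33KO_shCTRL, WT_shPTPN6 and WT_shCTRL (n = 6 each) from left to right. TOP2A is lowest and IL1B, SLC16A6 and CD209 highest in the double group, whereas CYBB in the double group lies between the single groups and level with control.

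The phagocyte NADPH oxidase, which makes superoxide, showed a level near control for its catalytic subunit where the single groups lay far apart. CYBB had 166, 159, 186, 148 and 169 CPM in CD33KO_shPTPN6, against 159.6 to 180.5 CPM (median 176) in WT_shCTRL, with overlapping libraries and no call (log2 fold change -0.06 ± 0.06 SE, edgeR adjusted p = 0.36; by library totals the estimate was -0.21 and was called). It lay at 17.6 to 26.1 CPM in CD33KO_shCTRL and 558 to 618 CPM in WT_shPTPN6, so the double group was above the single knockout (3.05 ± 0.08) and below the single knockdown (-1.83 ± 0.06) (edgeR adjusted p = 1.34e-57 and 1.09e-54). Across the 11 tested genes of the oxidase and its activators 7 rose and 2 fell against control, 8 were higher than in CD33KO_shCTRL (20.5% of all genes) and 8 lower than in WT_shPTPN6 (27.5% of all genes). NCF4, a cytosolic subunit, averaged 43.3 ± 6.54 CPM in CD33KO_shPTPN6, 40.5 ± 2.14 CPM in CD33KO_shCTRL, 168 ± 5.73 CPM in WT_shPTPN6 and 131 ± 4.17 CPM in WT_shCTRL, and the double group did not differ detectably from the single knockout (0.09 ± 0.09, edgeR adjusted p = 0.475). S100A8 and S100A9, calcium-binding proteins that activate the oxidase, rose by 2.19 ± 0.07 and 1.59 ± 0.07. By library totals 7 rose and 4 fell.

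Of 36 tested phagocytic, scavenger and Fc receptors 12 rose and 21 fell, with a median of -0.49. The share that rose was near the 32.1% of all tested genes, of which 31.7% fell. CD209, the lectin DC-SIGN, had 58.8, 81.4, 64.6, 58.8 and 74.4 CPM in CD33KO_shPTPN6, against 12.6 to 19.1 CPM (median 14.4) in WT_shCTRL (log2 fold change 2.11 ± 0.11 SE, edgeR adjusted p = 2.91e-34). It was highest in the double group, above CD33KO_shCTRL by 1.86 ± 0.12 and above WT_shPTPN6 by 1.77 ± 0.11 (edgeR adjusted p = 1.94e-26 and 1.69e-28). The scavenger receptor CD36 and the integrin ITGAX (CD11c) rose by 1.40 ± 0.06 and 1.75 ± 0.07. TIMD4, a receptor for phosphatidylserine on dying cells, had 0, 0, 2.69, 1.55 and 1.64 CPM in CD33KO_shPTPN6, against 43.1 to 57.4 CPM (median 51.6) in WT_shCTRL, and AXL, a receptor kinase for the same cargo, averaged 0.769 ± 0.746 CPM in CD33KO_shPTPN6, against 20.1 ± 2.48 CPM in WT_shCTRL. Every double library was far below every control for both, and without CD33KO_shPTPN6 replicate 1 the AXL log2 fold change was -5.36, against -4.69 ± 0.32 with it. CD163, the haemoglobin scavenger receptor, averaged 2.42 ± 1.22 CPM in CD33KO_shPTPN6, 2.41 ± 1.53 CPM in CD33KO_shCTRL, 89.8 ± 4.63 CPM in WT_shPTPN6 and 22.97 ± 4.78 CPM in WT_shCTRL, the checkpoint receptor HAVCR2 (TIM-3) changed by -1.96 ± 0.07 and the high-density lipoprotein receptor SCARB1 by -1.78 ± 0.10.

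More genes of lysosomal degradation and acidification rose than fell. Of 41 tested lysosomal genes 24 rose and 8 fell, with a median of 0.25, and of 17 V-ATPase subunits, which acidify the lysosome, 12 rose and 2 fell. By library totals the counts were 19 and 11 for the lysosome, and 10 and 3 for the V-ATPase. The protease CTSD averaged 2706 ± 136 CPM in CD33KO_shPTPN6, 1265 ± 61.5 CPM in CD33KO_shCTRL, 2312 ± 181 CPM in WT_shPTPN6 and 1045 ± 63.1 CPM in WT_shCTRL, above all 3 other groups, and LAPTM4A, a lysosomal membrane protein, rose by 1.28 ± 0.05. ATP6AP1, an accessory subunit of the pump, rose by 1.22 ± 0.05. CTSL, another protease, changed by -1.04 ± 0.05, below all 3 other groups.

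Of 24 tested glutathione genes and targets of the antioxidant factor NRF2, 18 rose and 2 fell (18 and 4 by library totals). Their median was 0.97, and 11 were above all 3 other groups (7.91% of all genes). The gene of the factor itself, NFE2L2, had 268, 262, 277, 241 and 241 CPM in CD33KO_shPTPN6, against 97.2 to 106 CPM (median 100.2) in WT_shCTRL, with no overlap (log2 fold change 1.35 ± 0.06 SE, edgeR adjusted p = 3.4e-42). SLC7A11, the cystine importer, averaged 319 ± 25.2 CPM in CD33KO_shPTPN6, 209.9 ± 11.4 CPM in CD33KO_shCTRL, 69.2 ± 5.33 CPM in WT_shPTPN6 and 31.8 ± 3.72 CPM in WT_shCTRL. SQSTM1, an autophagy receptor, rose by 2.47 ± 0.05, GCLC, the limiting enzyme of glutathione synthesis, by 1.90 ± 0.11, and GPX4, which detoxifies lipid peroxides, averaged 252 ± 30.5 CPM in CD33KO_shPTPN6, against 88.8 ± 1.74 CPM in WT_shCTRL. The classical targets NQO1 and HMOX1 went the other way, by -0.88 ± 0.06 and -0.46 ± 0.07. The ferritin chains FTH1 and FTL, which store iron, averaged 8474 ± 398 CPM in CD33KO_shPTPN6, against 1912 ± 83.8 CPM in WT_shCTRL (FTH1) and 3544 ± 111.6 CPM in CD33KO_shPTPN6, against 1404 ± 84.6 CPM in WT_shCTRL (FTL), and both were above all 3 other groups.

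Among genes of metabolism, 17 of 30 tested glycolysis and hypoxia genes rose and 5 fell (17 and 8 by library totals), with a median of 0.47 and 7 above all 3 other groups (7.91% of all genes). The list's medians were 0.22 in CD33KO_shCTRL and 0.56 in WT_shPTPN6. In the double group 10 were higher and 13 lower than in WT_shPTPN6 (29% and 27.5% of all genes). Compared with CD33KO_shCTRL, 18 were higher and 3 lower (20.5% and 21.6% of all genes). NDRG1, a hypoxia-induced gene, had 1041, 1018, 1080, 1028 and 1086 CPM in CD33KO_shPTPN6, against 131 to 147 CPM (median 139) in WT_shCTRL, a gap of several fold with no overlap (log2 fold change 2.92 ± 0.05 SE, edgeR adjusted p = 5.49e-78). The lactate exporter SLC16A3 rose by 1.17 ± 0.05, while the phosphofructokinase PFKP and the glucose transporter SLC2A3 changed by -2.04 ± 0.07 and -3.31 ± 0.20. Of 27 lipid efflux and lipid-associated macrophage genes 17 rose and 5 fell, with the cholesterol exporter ABCA1 at 125 ± 10.7 CPM in CD33KO_shPTPN6, 64.2 ± 9.62 CPM in CD33KO_shCTRL, 79.5 ± 7.89 CPM in WT_shPTPN6 and 17.1 ± 3.66 CPM in WT_shCTRL and the lipid droplet coat protein PLIN2 at a log2 fold change of 2.43 ± 0.05. Sterol synthesis and uptake genes split evenly, with 7 higher and 7 lower of 23 (5 and 10 by library totals), shares near the 32.1% and 31.7% of all tested genes. Of 38 tested ribosomal protein genes 32 rose and 2 fell, with a median of 0.36, while their share of all counts was also higher, as given above; 37 were higher than in CD33KO_shCTRL (20.5% of all genes) and 28 lower than in WT_shPTPN6 (27.5% of all genes). By library totals 25 rose and 4 fell.

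Of 34 tested early-response genes of the ERK and AP-1 pathway 22 rose and 5 fell, with a median of 0.49. The medians against the shared controls were 0.62 in CD33KO_shCTRL and -0.67 in WT_shPTPN6. Directly compared, 30 were higher and 3 lower than in WT_shPTPN6 (29% and 27.5% of all genes). Against CD33KO_shCTRL, 7 were higher and 19 lower (20.5% and 21.6% of all genes). JUN and MAFF, transcription factors of this response, rose by 1.61 ± 0.06 and 2.68 ± 0.11. EGR1, another such factor, had 58.8, 74.5, 66.9, 61.9 and 61.3 CPM in CD33KO_shPTPN6, against 48.2 to 66.6 CPM (median 62.5) in WT_shCTRL, with overlapping libraries and no call (0.09 ± 0.09, edgeR adjusted p = 0.369). Its mean in the double group lay between the 106 to 148 CPM in CD33KO_shCTRL and 9.01 to 15.4 CPM in WT_shPTPN6. An AP-1 element, TGA and TCA with any base between them, was searched on both strands of the same promoter windows. It was present for 1 of 26 tested early-response genes with a promoter in the table (3.85%) and 3 of 30 matrix and protease genes (10.0%). It was present in 7.76% of all 27305 promoters and 4.51% of those of tested genes. GDF15, a stress-induced cytokine of the TGF-beta family counted among 24 stress response genes of which 10 rose and 7 fell (7 and 12 by library totals), had 1936, 1720, 2249, 1893 and 2034 CPM in CD33KO_shPTPN6, against 75.2 to 82.3 CPM (median 79.1) in WT_shCTRL. It stood far above the control level in every double library (log2 fold change 4.64 ± 0.06 SE, edgeR adjusted p = 5.38e-93) and was above all 3 other groups.

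Of 30 tested macrophage maturation genes 18 rose and 9 fell, with a median of 0.89. CD14, the co-receptor for lipopolysaccharide, had 1427, 1276, 1321, 1272 and 1341 CPM in CD33KO_shPTPN6, against 235 to 314 CPM (median 280.2) in WT_shCTRL, and the double libraries stood above every library of the other groups (log2 fold change 2.24 ± 0.05 SE, edgeR adjusted p = 1.04e-53; 519 to 663 CPM in CD33KO_shCTRL and 842 to 894 CPM in WT_shPTPN6). CHI3L1, a secreted glycoprotein, and CEBPB, a myeloid transcription factor, rose by 1.92 ± 0.05 and 2.88 ± 0.06, both above all 3 other groups. SPI1, the myeloid master regulator PU.1, averaged 134 ± 8.91 CPM in CD33KO_shPTPN6, 56.9 ± 4.75 CPM in CD33KO_shCTRL, 152 ± 9.89 CPM in WT_shPTPN6 and 64.1 ± 7.72 CPM in WT_shCTRL, and CSF1R, through which colony-stimulating factor 1 acts on macrophages, averaged 438 ± 27.4 CPM in CD33KO_shPTPN6, 124 ± 9.22 CPM in CD33KO_shCTRL, 597 ± 17.8 CPM in WT_shPTPN6 and 262 ± 8.57 CPM in WT_shCTRL. Both were above the single knockout and below the single knockdown. LYZ, lysozyme, and FCGR1A, the high-affinity IgG receptor, changed by -2.17 ± 0.17 and -4.42 ± 0.41. FCGR1A had 0.494, 1.83, 0, 0 and 0 CPM in CD33KO_shPTPN6, against 8.33 to 12.3 CPM (median 11.1) in WT_shCTRL, and without CD33KO_shPTPN6 replicate 3 its log2 fold change was -6.15.

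Genes at Alzheimer's disease risk loci, a list that does not hold CD33, fell in 15 of 31 cases and rose in 10. Among all tested genes 31.7% fell and 32.1% rose, so the share that rose was near that of all genes. SORL1, a sorting receptor that binds the amyloid precursor protein, had 2.47, 3.66, 3.59, 3.61 and 4.09 CPM in CD33KO_shPTPN6, against 135 to 160 CPM (median 142) in WT_shCTRL. BIN1, a membrane-curving protein, had 7.41, 7.31, 9.43, 7.73 and 8.59 CPM in CD33KO_shPTPN6, against 239.7 to 281 CPM (median 262) in WT_shCTRL. In both, every double library was far below every control (-5.35 ± 0.14 and -5.00 ± 0.10, edgeR adjusted p = 6.04e-61 and 2.6e-70), and both were below all 3 other groups. BIN1 lay at 12.71 to 22.94 CPM in CD33KO_shCTRL and 11.96 to 16.56 CPM in WT_shPTPN6, so each single group was already far below control. TREM2, a lipid-sensing receptor of macrophages and microglia, averaged 185 ± 12.2 CPM in CD33KO_shPTPN6, 211 ± 12.3 CPM in CD33KO_shCTRL, 392 ± 13.9 CPM in WT_shPTPN6 and 608 ± 41.2 CPM in WT_shCTRL and was also the lowest of the 4 groups. CLU, the chaperone clusterin, changed by -1.90 ± 0.12, while APOE rose by 2.99 ± 0.16 and the protease ADAM17 by 0.64 ± 0.05.

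Of the 8 largest rises, PTGES alone was above all 3 other groups, and the other 7 were not called higher than in CD33KO_shCTRL. HSPG2, the gene of perlecan, a proteoglycan of basement membranes, had 12740, 10750, 12260, 10370 and 9024 CPM in CD33KO_shPTPN6, against 16.9 to 46.6 CPM (median 19.3) in WT_shCTRL (log2 fold change 8.86 ± 0.23 SE, edgeR adjusted p = 7.88e-19), and the double group did not differ detectably from CD33KO_shCTRL (-0.12 ± 0.16, edgeR adjusted p = 0.58). The pseudogene RPS26P52, the growth factor gene NRG4 and the cadherin CDH13 averaged 1442 ± 253 CPM in CD33KO_shPTPN6, against 1.2 ± 1.49 CPM in WT_shCTRL (RPS26P52), 1809 ± 239.8 CPM in CD33KO_shPTPN6, against 1.58 ± 2.17 CPM in WT_shCTRL (NRG4) and 1185 ± 184 CPM in CD33KO_shPTPN6, against 1.22 ± 1.31 CPM in WT_shCTRL (CDH13). All 4 were abundant in each double library and stood highest among controls in WT_shCTRL replicate 4. Without that library their log2 fold changes were 9.21 (HSPG2), 11.18 (RPS26P52), 11.25 (NRG4) and 10.64 (CDH13), against 8.86 ± 0.23, 10.09 ± 0.24, 10.01 ± 0.26 and 9.77 ± 0.24 with it. LINC01287 and the dopamine receptor gene DRD1 had no count in WT_shCTRL and were at least 246-fold and 116-fold higher in CD33KO_shPTPN6, against 3 counts summed over the controls. TAAR8, a trace amine receptor, averaged 18.4 ± 3.35 CPM in CD33KO_shPTPN6, against 0.028 ± 0.0687 CPM in WT_shCTRL, where its single count was in replicate 4.

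Of the largest falls, BBOX1, the last enzyme of carnitine synthesis, and the keratin KRT9 had no count in CD33KO_shPTPN6 and were at least 95.4-fold and 38.9-fold lower than WT_shCTRL, against 3 counts summed over the double group. The dipeptidase DPEP1 averaged 0.345 ± 0.348 CPM in CD33KO_shPTPN6, against 103 ± 4.4 CPM in WT_shCTRL, and the acute-phase protein SAA1 averaged 0.37 ± 0.379 CPM in CD33KO_shPTPN6, against 91.8 ± 3.83 CPM in WT_shCTRL. MMP13, CLIC5, MYT1 and CYP2S1 averaged 0.0818 ± 0.183 CPM in CD33KO_shPTPN6, against 12.6 ± 3.71 CPM in WT_shCTRL (MMP13), 0.579 ± 0.614 CPM in CD33KO_shPTPN6, against 56.7 ± 3.73 CPM in WT_shCTRL (CLIC5), 0.0988 ± 0.221 CPM in CD33KO_shPTPN6, against 9.51 ± 2.29 CPM in WT_shCTRL (MYT1) and 0.172 ± 0.235 CPM in CD33KO_shPTPN6, against 13.4 ± 1.14 CPM in WT_shCTRL (CYP2S1). The fitted log2 fold change of SAA1 was -7.83 ± 0.24, and -8.42 without CD33KO_shPTPN6 replicate 4, and that of CLIC5 was -6.59 ± 0.25, and -7.21 without CD33KO_shPTPN6 replicate 3. The only double count of MYT1 was in replicate 1 and that of MMP13 in replicate 6. All 8 of these genes rest on 0 to 6 counts over the 5 double libraries, and of them only CYP2S1 was called below all 3 other groups. Of 40 tested matrix and protease genes 20 rose and 11 fell, with the collagen receptor chain ITGA1 and the gelatinase MMP9 higher by 4.91 ± 0.10 and 2.16 ± 0.05 and TGFBI, a matrix protein, changed by -2.49 ± 0.06.

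Other genes stood apart from each of the 3 remaining groups. SLC16A6, a transporter of the monocarboxylate family, had 81.5, 92.8, 87.5, 85.6 and 82.6 CPM in CD33KO_shPTPN6, against 1.02 to 2.7 CPM (median 1.87) in WT_shCTRL, and lay at 14.1 to 21.01 CPM in CD33KO_shCTRL and 12.9 to 15.3 CPM in WT_shPTPN6. The double level was thus several times that of either single group (2.25 ± 0.12 and 2.59 ± 0.11, edgeR adjusted p = 2.64e-34 and 4.61e-42). SNX9, a membrane-remodelling protein of endocytosis, averaged 507 ± 32.7 CPM in CD33KO_shPTPN6, 160.2 ± 15.03 CPM in CD33KO_shCTRL, 156 ± 9.48 CPM in WT_shPTPN6 and 63.5 ± 4.57 CPM in WT_shCTRL, and HGD, an enzyme of tyrosine breakdown, averaged 38.3 ± 3.8 CPM in CD33KO_shPTPN6, 12.7 ± 3.07 CPM in CD33KO_shCTRL, 8.64 ± 0.633 CPM in WT_shPTPN6 and 2.93 ± 1.46 CPM in WT_shCTRL. ELFN1, a synaptic adhesion protein, and SLC13A3, a dicarboxylate transporter, rose by 2.59 ± 0.23 and 1.63 ± 0.24. On the low side, HSPB7, a small heat shock protein, averaged 0.365 ± 0.357 CPM in CD33KO_shPTPN6, 4.64 ± 1.72 CPM in CD33KO_shCTRL, 6.22 ± 1.25 CPM in WT_shPTPN6 and 16.6 ± 2.66 CPM in WT_shCTRL. ADRB1, the beta-1 adrenergic receptor, averaged 1.53 ± 0.739 CPM in CD33KO_shPTPN6, 7.95 ± 1.28 CPM in CD33KO_shCTRL, 7.92 ± 0.952 CPM in WT_shPTPN6 and 22.3 ± 1.87 CPM in WT_shCTRL, and PALD1 and C14orf132 (-5.71 without CD33KO_shPTPN6 replicate 1, against -5.09 ± 0.41 with it) followed the same order, with the double group lowest and WT_shCTRL highest.

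Among markers of other cell types, 5 of 16 lymphoid and 10 of 15 fibroblast and endothelial ones had enough counts to be tested. The numbers were 3 of 13 for HEK-293 and epithelial markers and 4 of 15 for erythroid and megakaryocytic markers. Lymphoid markers summed to 351.7 to 406.2 CPM in CD33KO_shPTPN6 and 606.5 to 741.2 CPM in WT_shCTRL, with 3 of 5 tested members lower, among them TRAC at -1.70 ± 0.06, and 1 higher, which was not called with the 11 libraries alone, after thinning or without CD33KO_shPTPN6 replicate 4 or 6. Fibroblast and endothelial markers summed to 740.7 to 799.9 CPM in CD33KO_shPTPN6 and 197.2 to 227.8 CPM in WT_shCTRL, most of it PECAM1, with 3 of 10 tested higher and 1 lower. HEK-293 and epithelial markers summed to 93.65 to 119.1 CPM in CD33KO_shPTPN6 and 50.48 to 68.04 CPM in WT_shCTRL, with CDH1 and CDH2 higher by 1.59 ± 0.17 and 0.84 ± 0.13 and the third tested member, INA, lower, at -5.43 ± 0.39, and -6.03 without CD33KO_shPTPN6 replicate 4. Erythroid and megakaryocytic markers summed to 17.83 to 40.01 CPM in CD33KO_shPTPN6 and 14.1 to 22.47 CPM in WT_shCTRL, with 2 of 4 tested members higher and none lower. In some alternatives, among them a fit with the replicate number as a block and leaving out CD33KO_shPTPN6 replicate 1 or WT_shCTRL replicate 1, 5 or 6, it was 1 higher. ALAS2, GATA1, HBG1 and HBG2 were among those at 0 in all 11 libraries. The part of any of these in the results was not tested.

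Whether counting used strand is not given in the sources used here, so counts are uncertain for genes that overlap another measured gene. Among the genes above this holds for ADAM17, CCND1, CD163, CSF1R, DDX60L, ELFN1, FTH1, HAVCR2, IFIT1, IFNGR2, IRF1, ITGA1, MCM2, MCM7, NFE2L2, NRG4, PIK3CD, PTGS1, PTPN11, RELA, RPS26P52 (also a near copy of RPS26), SIGLEC7, SLC13A3, SLC16A3, SLC16A6, SQSTM1, TAP1, TNFAIP3 and TYMS.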

How the data were processed

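The deposited values are raw gene counts, as whole numbers per gene and library, made by the authors from 3' end sequencing of 100 ng RNA per sample. Reads had been demultiplexed with bcl2fastq, aligned to hg38 with STAR 2.7.3a and counted with featureCounts of Subread 2.0.0, per the submitters' processing notes, which also name DESeq2 1.26.0 under R 3.6.1. The strand setting is not given in the sources used here. From the deposited counts, 13098 of 60617 gene IDs passed edgeR's filterByExpr by group. The 23 libraries were scaled by TMM and fitted together with edgeR 4.0.16 (robust quasi-likelihood test, R 4.3.3), so that the 4 groups shared 1 estimate of spread. Each p-value was adjusted over all tested genes by Benjamini-Hochberg, with 0.05 as the threshold, and SEs were derived from the fold change and its F statistic. The fit was tested on simulated data. Above or below all 3 other groups means called in the same direction against each of them. The alternatives were DESeq2 1.42.0, other scalings, no low-count filter, the 11 libraries alone, thinning to the smallest library and the replicate number as a block. Each of those 11 libraries was also left out in turn. Library totals of 2024032 to 5700712 counts set the precision.

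The members and the 36 gene lists were chosen with earlier results of these data known. The text names both targeted genes and the 8 largest rises and falls with non-overlapping groups and a mean of at least 5 CPM. It also names up to 2 called genes per list and direction by adjusted p, up to 6 genes per direction beyond all 3 other groups, and members of the receptor, receptor-proximal and oxidase lists. Genes outside this rule were chosen after their values were seen, namely ABCA1, ADAM17, ADAR, APOE, AURKB, AXL, BIRC2, BIRC3, BIRC5, BST2, CCL5, CCNB1, CCND3, CD163, CDC20, CDK1, CDKN1A, CLU, CSF1R, CXCL10, CXCL8, CYLD, DDX60L, EGR1, FCGR1A, GBP1, GBP2, GCLC, GPX4, HERC5, IFI16, IFI27, IFIT1, IFITM3, IL1B, LYZ, MCM2, MCM7, MKI67, NFE2L2, NFKB1, NFKBIA, PARP12, PCNA, PLK1, REL, RELA, RRM2, SCARB1, TIMD4, TNF, TNFAIP3, TYMS and UHRF1. Some single genes are not reported here. Sequences shown around motifs are from RefSeq (GRCh38.p14).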

Additional observations from a re-analysis of the deposited data

Results flagged for a closer look

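Single CD33KO_shPTPN6 and WT_shCTRL libraries stood apart from the rest of their group for some genes named above, by Dixon's test at its 95% critical value. Libraries of CD33KO_shCTRL and WT_shPTPN6 were not screened in this way. Chance marks about 1 in 20 groups in this way, and 27 of 358 sets of values were marked. That rate does not hold for MYT1, MMP13 and TAAR8, each a lone count among libraries at 0, which the test always marks. In CD33KO_shPTPN6 replicate 1, the values standing apart were MYT1 above the others at 0.494 CPM (nearest 0), S100A8 above the others at 351 CPM (nearest 312) and SRC below the others at 40.99 CPM (nearest 48.9). In CD33KO_shPTPN6 replicate 3, the values standing apart were FCGR1A above the others at 1.83 CPM (nearest 0.494) and RELA below the others at 89.1 CPM (nearest 106). In CD33KO_shPTPN6 replicate 4, the values standing apart were CHI3L1 below the others at 2195 CPM (nearest 2402), TRAC above the others at 121 CPM (nearest 90.5) and TREM2 above the others at 206 CPM (nearest 182). In CD33KO_shPTPN6 replicate 5, the values standing apart were NCF4 above the others at 54.6 CPM (nearest 42.2). In CD33KO_shPTPN6 replicate 6, the values standing apart were MMP13 above the others at 0.409 CPM (nearest 0). In WT_shCTRL replicate 2, the values standing apart were MAFF above the others at 15.5 CPM (nearest 11.7). In WT_shCTRL replicate 4, the values standing apart were CCND3 below the others at 356 CPM (nearest 374), CD300A below the others at 22.7 CPM (nearest 26.4), CDH13 above the others at 3.87 CPM (nearest 0.9), HSPG2 above the others at 46.6 CPM (nearest 20.5), NFKBIA below the others at 364 CPM (nearest 396), NRG4 above the others at 5.89 CPM (nearest 1.35), RPS26P52 above the others at 4.21 CPM (nearest 0.932), SAA1 below the others at 84.6 CPM (nearest 91.7) and TAAR8 above the others at 0.168 CPM (nearest 0). In WT_shCTRL replicate 5, the values standing apart were ADAM17 above the others at 525.8 CPM (nearest 506) and IFI16 above the others at 273 CPM (nearest 245). In WT_shCTRL replicate 6, the values standing apart were EGR1 below the others at 48.2 CPM (nearest 60.1), IL23A above the others at 9.55 CPM (nearest 8.11), TREM2 above the others at 685 CPM (nearest 613), TYROBP above the others at 1118 CPM (nearest 948) and UQCRC1 above the others at 94.6 CPM (nearest 85.2). The part of WT_shCTRL replicate 4 in the changes of HSPG2, NRG4, CDH13 and RPS26P52 is given by the log2 fold changes without it, which were 9.21, 11.25, 10.64 and 11.18. The cause was not tested.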

How the results depend on the processing

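The counts of called genes over all tested genes and both targeted genes kept their direction and stayed within 1.5 times of the reported value under each alternative that could be computed. Of 13098 tested genes, 8244 were called with DESeq2 (4086 higher, 4158 lower) and 8353 with RLE size factors. The number tested differed in other alternatives. Called genes were 9065 of 34700 without the filter on low counts, 8297 of 12787 with the 11 libraries alone and 7366 of 11813 after thinning to the smallest library. Each of the 11 CD33KO_shPTPN6 and WT_shCTRL libraries was also left out in turn, with all CD33KO_shCTRL and WT_shPTPN6 libraries kept. This gave 8045 to 8205 called genes, 4028 to 4108 higher and 4017 to 4170 lower, with 2812 to 3007 at 2-fold (1177 to 1278 higher and 1618 to 1742 lower). The genes beyond all 3 other groups then numbered 1753 to 1932 (935 to 999 above and 818 to 933 below), and those called against CD33KO_shCTRL and WT_shPTPN6 5123 to 5527 and 7023 to 7401. The log2 fold change ranged from -1.04 to -0.83 for CD33 and from -2.81 to -2.49 for PTPN6. Scaling by library totals alone gave 3209 higher and 5258 lower genes, with 692 above and 1270 below all 3 other groups; the cause was not tested. Counts within the gene lists were less stable: 79 moved by more than 1.5 times over all alternatives and 2441 did not, with 20 moved by library totals and at most 7 by any other alternative. By library totals the stress response list turned to 7 higher and 12 lower, against 10 and 7, and the mitochondrial transcripts to 5 and 6, against 7 and 2.

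The replicate numbers did not pair the libraries, since the deviations of same-numbered libraries correlated at -0.053 to 0.016. With the replicate number as a block, 8270 genes were called (4150 higher, 4120 lower), and the log2 fold changes were -2.61 for PTPN6 and -0.97 for CD33. The shallower double libraries limit genes of few counts; after thinning, the log2 fold change was 8.73 for PTGES and -8.59 for DPEP1.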

Other observations

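Among lists not described above, 11 of 27 tested pattern recognition and inflammasome genes fell and 7 rose. TLR7, an endosomal receptor for RNA, averaged 0.773 ± 0.566 CPM in CD33KO_shPTPN6, against 11.2 ± 1.64 CPM in WT_shCTRL, and LY96, the partner of TLR4, averaged 7.2 ± 1.67 CPM in CD33KO_shPTPN6, against 25.2 ± 1.48 CPM in WT_shCTRL, while the kinase RIPK2 rose by 1.32 ± 0.13 (log2 fold change ± SE). Nuclear subunits of oxidative phosphorylation included 19 that fell and 10 that rose among 38 tested (23 and 5 by library totals), with 9 below all 3 other groups (6.86% of all genes). UQCRC1 of complex III rose by 1.18 ± 0.06. Transcripts of the mitochondrial genome rose in 7 of 15 cases and fell in 2, which became 5 and 6 by library totals; 1 fell without CD33KO_shPTPN6 replicate 1 or 5 or WT_shCTRL replicate 5.

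Heat shock chaperones rose in 9 of 16 cases and fell in 2 (8 and 4 by library totals, 1 lower without CD33KO_shPTPN6 replicate 3 or 5), with HSPA1B, an inducible HSP70, at 112.1 ± 10.2 CPM in CD33KO_shPTPN6, against 15.98 ± 2.39 CPM in WT_shCTRL. Genes of metallothioneins and iron handling rose in 7 of 16 cases and fell in 5, with the metallothioneins MT1E and MT2A at -0.72 ± 0.08 and -0.36 ± 0.05. Of 11 tested genes of undifferentiated myeloid cells and granules 6 fell and 2 rose. FLT3, a receptor kinase of progenitors, averaged 11 ± 2.36 CPM in CD33KO_shPTPN6, against 61.2 ± 4.23 CPM in WT_shCTRL, and the transcription factor SOX4 averaged 876 ± 84.96 CPM in CD33KO_shPTPN6, against 417 ± 41.04 CPM in WT_shCTRL. Of 15 tested complement genes 5 fell, near the 31.7% of all tested genes, with the component C3 at -1.36 ± 0.09. The 1 that rose was the anaphylatoxin receptor C5AR1 (averaging 123 ± 9.48 CPM in CD33KO_shPTPN6, against 49.8 ± 3.57 CPM in WT_shCTRL). By library totals 9 fell and 1 rose, and without WT_shCTRL replicate 4 and 6 in turn 3 and 2 rose. C3 overlaps another measured gene.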
